A study of Mus musculus with 8 samples.

Results

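The m6A reader genes Ythdf1, Ythdf2, Ythdf3, Ythdc1 and Hnrnpa2b1 were taken by name and make up 5 of the 53465 genes of the count table. m6A is a methyl mark on adenosines within RNA, and a reader is a protein that binds RNA bearing it. The 3 YTHDF proteins and YTHDC1 hold the mark in the pocket of their YTH domain. The YTHDF proteins act mainly in the cytoplasm, on translation and decay of marked mRNAs; YTHDC1 is nuclear and acts in splicing, 3′ end choice and export. HNRNPA2B1 is a nuclear RNA-binding protein without a YTH domain, proposed to read the mark in primary microRNAs and in splicing. In the testis, germ cells pass from pachytene spermatocytes, in meiotic prophase, to haploid round spermatids, and depend on regulated splicing, storage and decay of mRNA.

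The data were MeRIP-seq libraries, in which fragmented RNA bound by an m6A antibody is sequenced next to the unselected RNA, the input. Spermatogenic cells came from the testes of C57BL/6 mice aged 12 weeks, either wild type (WT) or Alkbh5-/- (KO), which lack a demethylase that removes the mark. The cells were labelled PA and RO, which the series title names as pachytene spermatocytes and round spermatids. Each of the 8 samples was its own group (input and immunoprecipitated RNA, each from PA and RO of both genotypes), so nothing here has a replicate check and no test was made. Whether a sample pooled several animals, how the cells were separated and their purity are not given in the sources used here.

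The input libraries held between 9921365 (KO PA) and 13147239 (WT PA) counts. Only the 8733 genes with a peak in some list carry a symbol here, and Alkbh5 was not analysed here, so the genotype labels were not checked on the targeted gene. Of the spermatid markers, 10 of 13 had a symbol, and their summed level, in CPM (counts relative to a scaled library size), was 263 in PA and 506 in RO of WT, and 615 in PA and 1119 in RO of KO. Of the pachytene markers only Sycp1, Sycp2 and Ldhc had a symbol, and their sum was 2383, 2145, 1448 and 1642 in the same order; none of them was at least 2-fold lower in RO than in PA. So the spermatid sum was higher in RO within each genotype, the sum in KO PA lay above that in WT RO (7 of the 10 genes were higher in KO PA and 3, Acrv1, Acr and Tssk1, lower), and the 3 pachytene markers did not separate the fractions. Markers of Leydig cells (2 of 5 with a symbol) summed to 136, 41.5, 40.0 and 16.7, and of Sertoli cells (2 of 5) to 97.3, 57.2, 132.5 and 77.1. The sums were 30.5, 23.4, 60.4 and 42.4 for spermatogonia (3 of 6), 113.6, 61.9, 172.3 and 139.1 for endothelial cells (3 of 3), 285.3, 142.6, 272.1 and 225.8 for smooth muscle (Myh11, 1 of 2), and 2.13, 6.86, 12.3 and 21.6 for macrophages (Csf1r, 1 of 3). By these sums the KO libraries were thus below the WT library of the same fraction for Leydig markers. They were above it for the spermatogonia, Sertoli, endothelial and macrophage sums, although the Sertoli marker Sox9 was lower in KO PA than in WT PA. No marker with a symbol had 0 counts in any library. The part of these differences in the values below was not tested.

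The peak at the 5′ end of Hnrnpa2b1 is the single m6A peak of that gene in the 4 lists and lies at an annotated transcript start, so the sequence there is shown. It lies on the minus strand at chr6:51469655-51469894 (mm10), and its upstream edge is the first base of a RefSeq transcript of the gene. The run below covers chr6:51469865-51469944, minus strand, from RefSeq (GRCm38.p6); capitals mark the first 30 transcribed bases, which lie under the peak, and lower case the 50 bases before the start.
Hnrnpa2b1: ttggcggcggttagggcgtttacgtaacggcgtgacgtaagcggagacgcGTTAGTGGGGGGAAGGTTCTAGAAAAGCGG
A further RefSeq start of the gene, at position 51469845, also lies under the peak. The motif GGAC, a common core of m6A sites, had 0 matches on the transcribed strand in the 50 bases after either start, and 1 match on the opposite strand after the further start, whereas 18.9% of 32851 RefSeq windows of 50 bases after a start hold it on the transcribed strand and 33.3% on either strand. No match says only that these letters are not in these windows; the peak beyond them was not read. For Ythdf1, Ythdf2 and Ythdc1 the nearest peak began 8853, 6575 and 11369 bp of genome after the RefSeq start, introns included.

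All 5 genes were detected in every input library. Levels are given as CPM after scaling by TMM (a factor per library that centres most genes), and because transcript lengths were not used, they are compared only within a gene. Ratios are differences of log2 CPM, with an exact binomial 95% interval that covers counting error only. The spread between libraries was wider than counting error, so each ratio is read beside the genes of like count, those whose summed count in both libraries was from 0.5 to 2 times that of the member. In RNA from many cells, a lower level from fewer cells of a type and from less RNA per cell cannot be told apart.

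**Figure D1:**
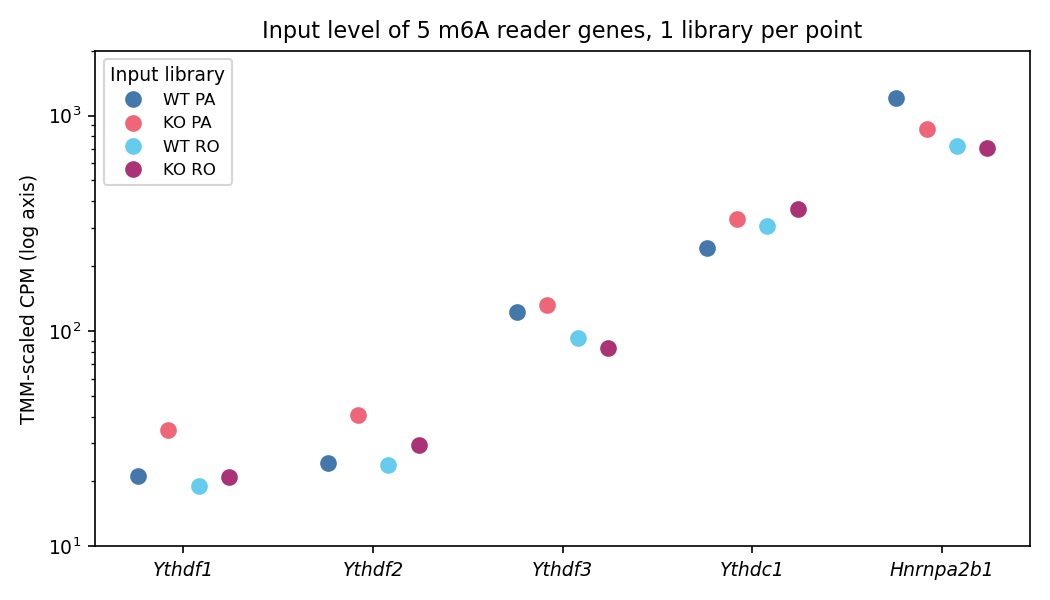
TMM-scaled CPM (log axis) of the 5 reader genes in the 4 input libraries, 1 library per point and so without error bars. Ythdf1 and Ythdf2 stand highest in KO PA (34.8 and 40.6 CPM), Hnrnpa2b1 in WT PA (1209 CPM), and no gene spans more than 1.82-fold.

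Ythdf1, whose protein is best known for promoting translation of marked mRNAs, had 248 counts in PA and 219 in RO of WT mice (21.1 and 19.0 CPM), and 376 and 230 in those of KO mice (34.8 and 21.0 CPM). KO PA was the high library, and the other 3 lay close together. The log2 ratio of KO to WT was 0.71 (0.48 to 0.95) in PA, a 1.64-fold difference, and 0.14 (-0.13 to 0.42) in RO. The ratio of RO to PA was -0.15 in WT (-0.42 to 0.12) and -0.72 in KO (-0.97 to -0.49). Thus the interval excluded 0 in the 2 comparisons that hold the KO PA library. Beside that, 39.7% of 5899 genes of like count had a ratio of KO to WT in PA at least as large in size, and 19.3% of 6058 a ratio of RO to PA in KO.

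Ythdf2, whose protein recruits the CCR4-NOT deadenylase and speeds decay of marked mRNAs, had 286 counts in PA and 274 in RO of WT mice (24.4 and 23.8 CPM), and 439 and 322 in those of KO mice (40.6 and 29.4 CPM). KO PA was again highest, and both KO libraries lay above both WT libraries. The log2 ratio of KO to WT was 0.73 (0.52 to 0.95) in PA, or 1.66-fold, and 0.30 (0.07 to 0.54) in RO. RO over PA gave -0.46 in KO (-0.68 to -0.25) and -0.035 in WT (-0.28 to 0.21), and the latter turned to 0.059 when libraries were scaled by their totals alone. Genes of like count with a ratio of KO to WT at least as large in size made up 36.3% in PA and 69.8% in RO. The sums of the spermatogonia, Sertoli and endothelial markers were, like Ythdf1 and Ythdf2, highest in KO PA, but their genes were divided. Zbtb16, Wt1, Cd93 and Vwf were highest in KO PA, whereas Gfra1, Stra8, Sox9 and Pecam1 were highest in KO RO. The part of these markers in the ratios was not tested.

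Ythdf3, which encodes the third cytoplasmic YTHDF protein, known to work with the other two, had 1441 counts in PA and 1072 in RO of WT mice (122.8 and 93.1 CPM), and 1430 and 908 in those of KO mice (132.2 and 82.9 CPM). Both PA libraries lay above both RO libraries. RO over PA was -0.40 in WT (-0.52 to -0.29) and -0.67 in KO (-0.80 to -0.55), the latter 1.59-fold lower. Genes of like count with a ratio at least as large in size made up 43.1% in WT and 8.75% in KO. KO over WT was 0.11 (-0.001 to 0.21) in PA and -0.17 (-0.30 to -0.04) in RO, and the ratio in RO turned to 0.012 under scaling by library totals alone.

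Ythdc1, the nuclear YTH reader, had 2854 counts in PA and 3533 in RO of WT mice (243.3 and 306.9 CPM), and 3567 and 4046 in those of KO mice (329.7 and 369.4 CPM). It was lowest in WT PA and highest in KO RO. All 4 log2 ratios lay above 0: 0.44 (0.37 to 0.51) for KO over WT in PA, 0.27 (0.20 to 0.33) in RO, 0.34 (0.26 to 0.41) for RO over PA in WT and 0.16 (0.10 to 0.23) in KO. Genes of like count leaned the other way in both genotype comparisons, with medians of -0.30 in PA and -0.27 in RO. Of these genes 92.8% in PA and 85.5% in RO had a lower ratio than Ythdc1, while 49.5% and 64.8% had one at least as large in size. Like Ythdc1, the sums of the spermatid and macrophage (Csf1r) markers were lowest in WT PA and highest in KO RO. Of the spermatid markers this held for Prm2, Tnp2, Tssk1, Odf1, Akap4 and Cylc1, but not for Acrv1, Acr, Tssk2 and Actrt3. The part of these markers in the Ythdc1 ratios was not tested.

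Hnrnpa2b1 had 14183 counts in PA and 8297 in RO of WT mice (1209 and 720.6 CPM), and 9322 and 7779 in those of KO mice (861.8 and 710.2 CPM). WT PA was the high library for Hnrnpa2b1, and the RO libraries were close to each other. WT PA was also highest for the sums of the Leydig, smooth muscle and pachytene markers, whose part was not tested. Of the pachytene markers this held for Sycp2 (1777 CPM), whereas Sycp1 was highest in KO RO (434.5 CPM) and Ldhc in KO PA (283.6 CPM). The log2 ratio of RO to PA was -0.75 in WT (-0.79 to -0.71), 1.68-fold lower, and -0.28 in KO (-0.32 to -0.24). Of 244 genes of like count, 6.15% had a ratio of RO to PA in WT at least as large in size and 0.82% a lower one; in KO 28.7% were at least as large. KO over WT was -0.49 (-0.53 to -0.45) in PA, close to the median of -0.45 for genes of like count. In RO it was -0.02 (-0.07 to 0.02), above the like-gene median of -0.37, and 77.5% of those genes had a lower ratio. The ratio in RO turned to 0.158 under scaling by library totals alone. The handling of reads shared with processed copies of a gene is not given in the sources used here, so the counts of Hnrnpa2b1, which has such copies, are uncertain to that extent.

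**Figure D2:**
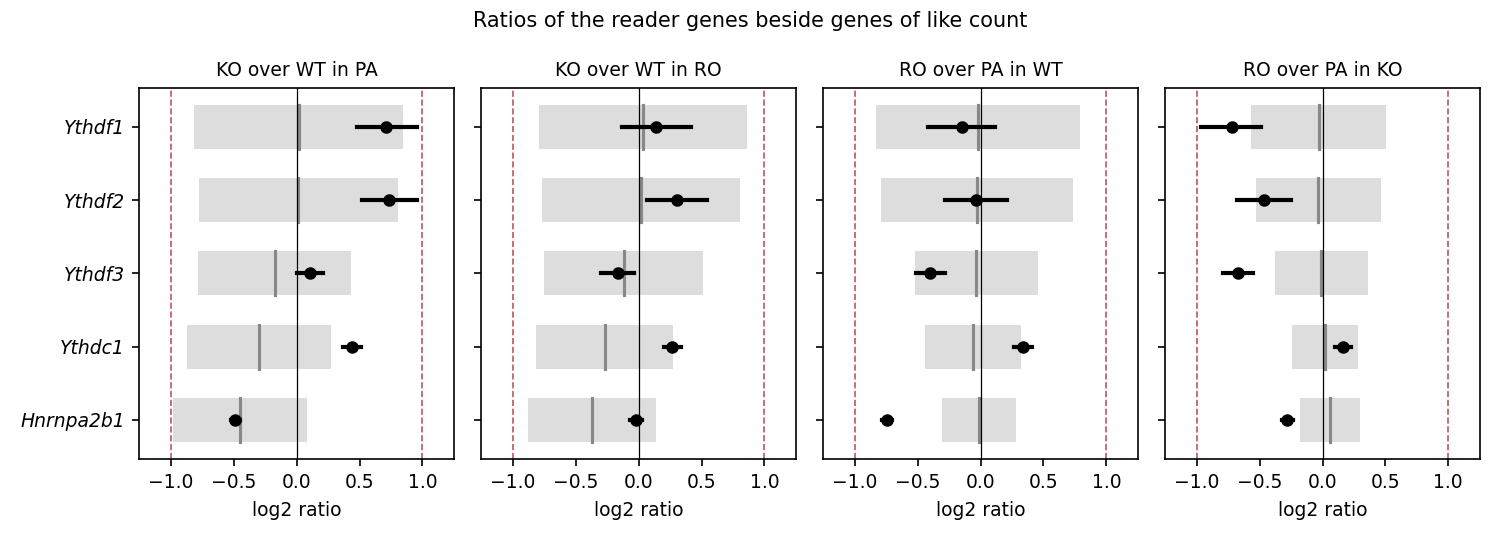
Log2 ratios of the 5 reader genes in 4 comparisons of 1 library with 1 library; points are ratios, black lines 95% intervals of counting error, grey bars the median ± 1 robust SD of genes of like count, and dashed lines 2-fold. No point passes a dashed line; outside their grey bars lie Ythdc1 for KO over WT in PA (0.44) and RO over PA in WT (0.34), Hnrnpa2b1 for RO over PA in WT (-0.75) and KO (-0.28), and Ythdf1 (-0.72) and Ythdf3 (-0.67) for RO over PA in KO.

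None of the 5 genes was at least 2-fold different in any of the 4 comparisons. Among all genes that reached a CPM of 10 in one or both libraries, the share at least 2-fold different was 26.5% for KO over WT in PA, 24.9% for KO over WT in RO, 20.6% for RO over PA in WT and 11.6% for RO over PA in KO; from a CPM of 1 it was 43.3%, 41.9%, 39.4% and 32.9%. At 1.5-fold, Ythdf1 and Ythdf2 were higher in KO PA than in WT PA, Hnrnpa2b1 was lower in WT RO than in WT PA, and Ythdf1 and Ythdf3 were lower in KO RO than in KO PA. That is 2, 0, 1 and 2 of 5 members, beside 49.4%, 47.1%, 41.7% and 30.6% of all genes that reached a CPM of 10. The members' counts past either fold were thus at or below the shares of all genes, apart from RO over PA in KO at 1.5-fold. The median log2 ratio of the 5 was 0.44, 0.14, -0.15 and -0.46 in the same order, against -0.004, -0.027, -0.018 and -0.021 for all genes. The genotype and stage comparisons share libraries, so that the high Ythdf1 level in KO PA enters both of its larger ratios.

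The patterns over the 4 libraries differed between the members. As a description, log2 CPM was centred over the 4 libraries and the Euclidean distance between genes taken. The closest pair of members was Ythdf1 and Ythdf2, at a distance of 0.22, and the farthest Ythdc1 and Hnrnpa2b1, at 1.02. Among 5295 named genes that reached a CPM of 10 in all 4 libraries, the nearest to each member lay closer than any other member did. They were Gm10010 (0.09) and Gtf2a1 (0.10) for Ythdf1, Abhd13 (0.08) and Bicra (0.08) for Ythdf2, Gm4734 (0.05) and Zfp384 (0.07) for Ythdf3, Mlxip (0.04) for Ythdc1, and Nfx1 (0.04) and Gm11889 (0.05) for Hnrnpa2b1. Between 51 and 147 genes lay within 0.25 of a member, so a near pattern over 4 libraries is common. Gm4734 and Gm11889 are classed as processed pseudogenes in the peak lists, which do not name their parent genes.

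The mark was next followed on the readers' own transcripts. The authors called peaks for each pair of immunoprecipitated and input libraries, and each peak's class, fold enrichment and false discovery rate (FDR) are theirs; a fold is read only within its own list. The 5 genes held 45 peaks, all at an FDR under 0.05: 10 and 12 in the WT lists of PA and RO, and 12 and 11 in the KO lists. By class, 23 lay in coding sequence (CDS), 21 in an exon without further class and 1 in a 3′ untranslated region. The 4 YTH genes had peaks in every list, and Hnrnpa2b1 in WT RO only. Of all genes that reached a CPM of 10, a peak was listed for 35.6% (PA) and 40.6% (RO) in WT, and for 42.7% (PA) and 38.6% (RO) in KO. Since a symbol required a peak in some list, a member had to have at least 1.

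**Figure D3:**
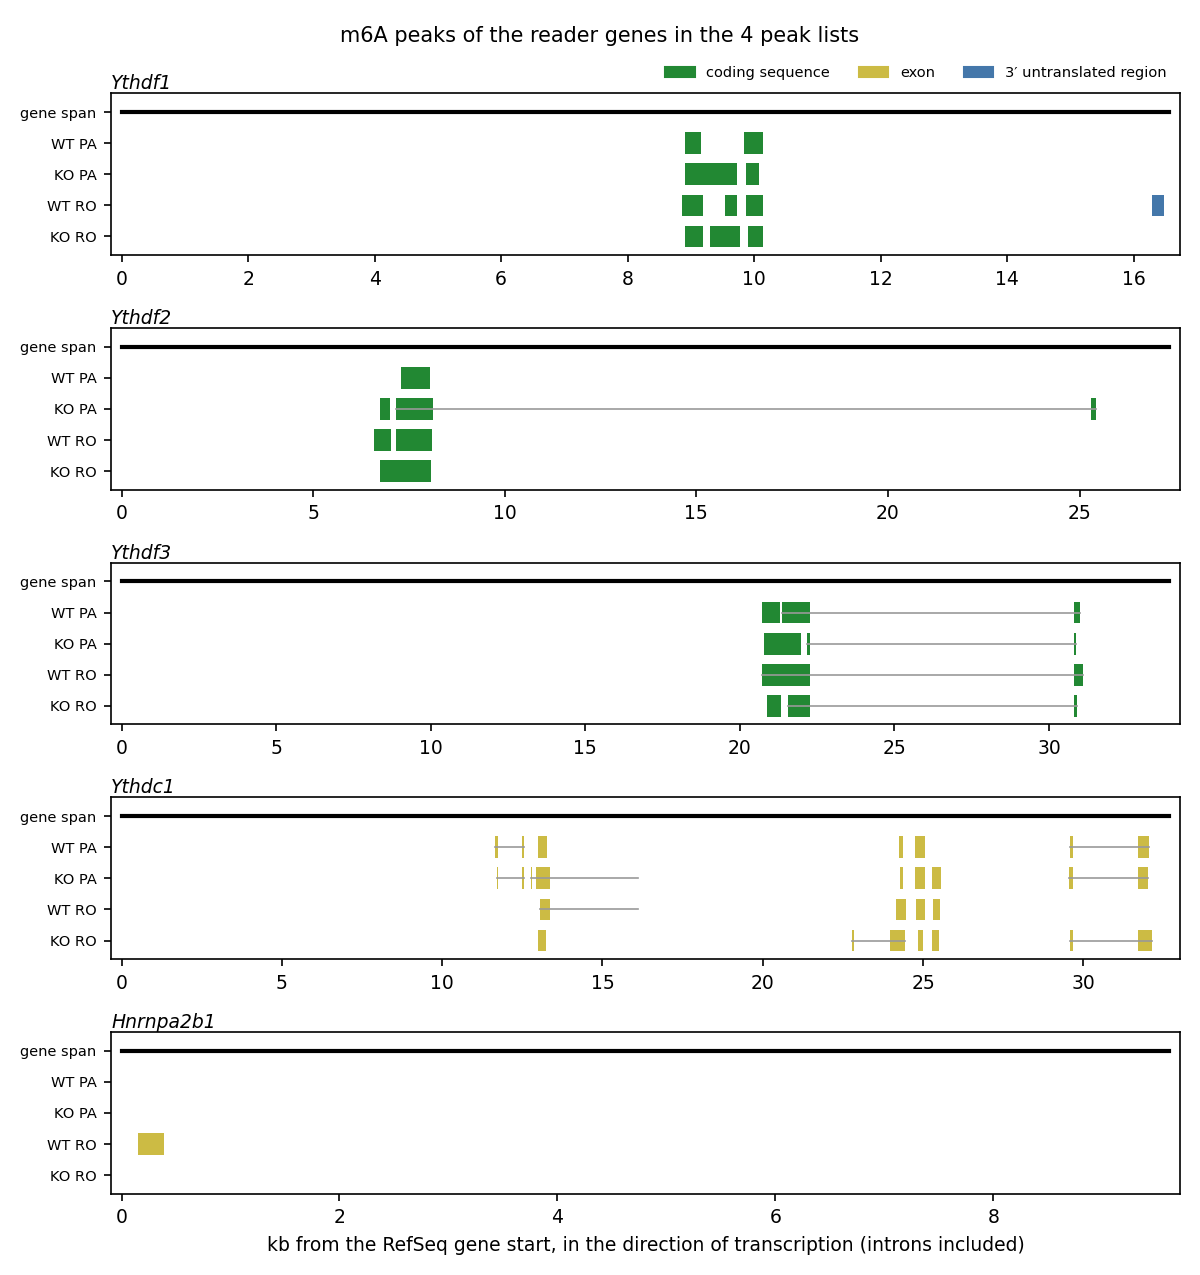
Position of the 45 peaks of the reader genes in the 4 lists, in kb of genome from the RefSeq gene start in the direction of transcription; boxes are exon blocks coloured by the class of the peak, and grey lines join blocks of 1 peak across introns. The YTHDF genes carry their peaks in 1 or a few stretches of coding sequence, Ythdc1 has exon peaks at several places, and Hnrnpa2b1 has 1 peak near its start in WT RO.

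Ythdf1 (chr2:180904377-180920936, minus strand, ENSMUSG00000038848) had 2 peaks in each PA list, 4 in the RO list of WT and 3 in that of KO, of which 10 were CDS. All 4 lists covered chr2:180910858-180911038 and chr2:180911784-180912023, together 421 of the 1406 bp under any Ythdf1 peak (29.9%). Between these stretches WT PA had no separate peak, WT RO had one at chr2:180911217-180911396, and KO RO had a longer one at chr2:180911157-180911635. In KO PA 1 peak, at chr2:180911217-180912023, ran from between the stretches through the one at chr2:180911784-180912023. The highest fold of its peaks was 18.4 (PA) and 70.0 (RO) in the WT lists and 21.8 (PA) and 44.6 (RO) in the KO lists. Within their own lists these peaks were in the top 32.8% (PA) and 9.39% (RO) in WT. In KO they were in the top 28.9% (PA) and 10.8% (RO). The 3′ untranslated peak was in WT RO alone, at chr2:180904467-180904646 with a fold of 18.8, and ended 90 bp before the RefSeq gene end.

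Ythdf2 (chr4:132184916-132212256, minus strand, ENSMUSG00000040025) had 6 peaks, all CDS. The stretch chr4:132204217-132204964 lay under a peak in every list, 748 of 1674 bp (44.7%), and was the whole of the WT PA signal, with a fold of 48.5. In KO PA the peak over it had a fold of 152, which ranked 62 of 9931, and held a block of 124 bp in a separate downstream exon at chr4:132186824-132186947. Nearer the start, chr4:132205263-132205502 was covered in KO PA (fold 9.96), WT RO (fold 70.0) and KO RO, but not in WT PA. In KO RO a single peak of 1316 bp with a fold of 97.3 joined both places.

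Ythdf3 (chr3:16183148-16217037, plus strand, ENSMUSG00000047213) had 7 CDS peaks, among them the reader peak with the best rank within its list. That peak, at chr3:16203864-16204433 in WT PA, had a fold of 239 and ranked 18 of 7502. WT RO held 1 peak of 1858 bp over 2 exons (chr3:16203864-16214251, fold 122). KO PA had a peak of 1199 bp with a fold of 75.0 and one of 151 bp with a fold of 4.38, and KO RO 2 peaks with folds of 56.4 and 27.3. The bases under a peak in all 4 lists were 991 of 1858 (53.3%), the largest such share among the 5 genes.

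Ythdc1 (chr5:86803980-86836659, plus strand, ENSMUSG00000035851) had 20 peaks, more than any other member, and all were classed exon. In protein-coding genes that class made up 9.98% of the peaks in WT PA and 9.71% in WT RO. The RefSeq table gives Ythdc1 10 coding and 4 noncoding transcripts. The fold was under 5 in 9 of the 20 peaks, whereas of the other 25 reader peaks 1 was under 5. The peak at chr5:86828727-86829027 had a fold of 73.8 in WT PA, in the top 4.03% of that list. The same place had a fold of 12.4 in KO PA (top 51.6%), 10.8 in WT RO (top 63.8%) and 3.90 in KO RO (top 90.5%, chr5:86828817-86828967).

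Ythdc1 also differed between lists in which places were called. The peak at chr5:86815635-86816547 was in both PA lists and in neither RO list. The peak that begins at chr5:86829266 in KO PA had counterparts in WT RO and KO RO but not in WT PA. The peak nearest the 3′ end, chr5:86833570-86836030 in WT PA, was also in KO PA and KO RO but not in WT RO. Where these places were called, the fold lay between 2.63 and 14.1. Bases under a peak in all 4 lists were 452 of 2311 (19.6%), the lowest share among the YTH genes.

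Hnrnpa2b1 (chr6:51460434-51470048, minus strand, ENSMUSG00000004980) had the 5′ peak shown above and no other. The peak had a fold of 14.0, ranked 5073 of 9418 in WT RO, and a log10 FDR of -20.6. No list but WT RO called it. The gene had more counts in WT PA and KO PA than in WT RO, and fewer in KO RO. These counts cover the whole gene and not the bases under the peak. Why the other lists lack the peak was not tested. Genes with a CPM from 0.5 to 2 times that of Hnrnpa2b1 had a peak in 68.1% (PA; Wilson 95% interval 60.6% to 74.8%) and 69.7% (RO; 64.9% to 74.1%) of cases in WT, and in 84.0% (PA; 77.9% to 88.6%) and 75.0% (RO; 69.6% to 79.7%) in KO. In WT RO its 240 bp compared with a median of 704 bp under peaks in such genes, and 82.3% of those covered at least as much.

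The YTH genes had more sequence under peaks than most genes of like CPM that had a peak. Ythdf3 had 1679 bp (PA) and 1858 bp (RO) in WT and 1350 bp (PA) and 1259 bp (RO) in KO, where the medians for like genes were 420, 390, 512 and 419 bp. In the same order Ythdf2 had 748, 1377, 1317 and 1316 bp, and Ythdf1 had 539, 959, 1017 and 989 bp. Ythdc1 had 1322, 1142, 1712 and 1652 bp. Over the 4 lists, the share of like genes with a peak that covered at least as much ran from 3.15% to 15.3% for Ythdf1, from 1.35% to 7.58% for Ythdf2, from 2.36% to 13.5% for Ythdf3 and from 12.7% to 20.9% for Ythdc1. Lengths of transcripts were not used, so longer transcripts may hold more sequence under peaks.

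**Figure D4:**
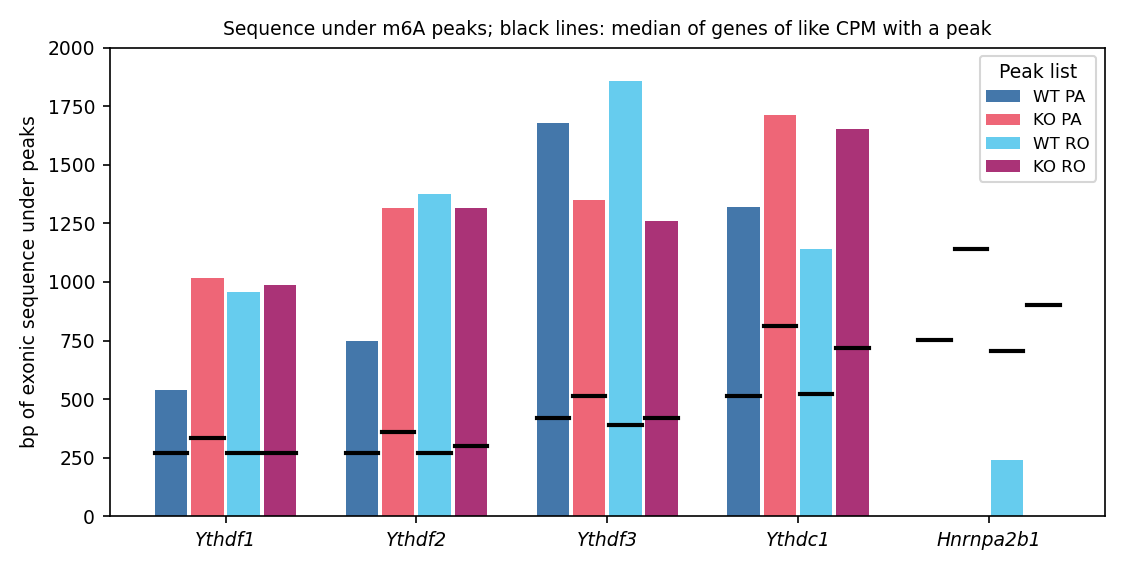
Exonic sequence under m6A peaks (bp) for each reader gene in each of the 4 lists; bars are the gene, and black lines the median of genes of like CPM that have a peak in that list. The 4 YTH genes stand above the black line in every list, Ythdf3 highest at 1858 bp in WT RO, and Hnrnpa2b1 has no bar except 240 bp in WT RO.

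Between genotypes most reader peaks had a counterpart, an overlap of at least 1 bp of exon blocks on the same strand in the other genotype of the same fraction. In PA this held for 10 of 10 WT peaks and 10 of 12 KO peaks, beside 79.7% and 56.6% of all peaks of those lists. In RO it held for 10 of 12 WT peaks and 10 of 11 KO peaks, beside 55.9% and 58.9%. When the overlap had to reach 50% of both peaks, the counts were 8 of 10 and 8 of 12 in PA, beside 60.2% and 45.5% of all peaks, and 7 of 12 and 7 of 11 in RO, beside 40.0% and 42.6%. At an overlap of at least 1 bp, 5 peaks were without a counterpart. In KO PA they were the Ythdf2 peak at chr4:132205263-132205502 and the Ythdc1 peak at chr5:86829266-86829535. In WT RO they were the 3′ untranslated peak of Ythdf1 and the peak of Hnrnpa2b1, and in KO RO the Ythdc1 peak at chr5:86833570-86836120. Of bases under a peak in either genotype, both genotypes covered 40.7% in PA and 54.8% in RO for Ythdf1, 56.8% and 76.6% for Ythdf2, 71.3% and 67.8% for Ythdf3, and 65.6% and 43.1% for Ythdc1. Neither fraction was the more alike between genotypes across all 4 genes.

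The other genes of the pathway are described by the same ratios, for members with a symbol. Of 10 further readers, Fmr1, which binds mRNA and represses translation, and Prrc2a had one. Fmr1 was at 86.3 (PA) and 58.6 (RO) CPM in WT and 124.7 (PA) and 138.8 (RO) in KO, a log2 ratio of KO to WT of 0.53 in PA and 1.24 in RO. Prrc2a was at 937.7, 953.8, 537.6 and 502.0 CPM, with ratios of -0.80 and -0.93. The KO libraries thus lay above the WT libraries for Fmr1 and below them for Prrc2a. Genes of like count to Prrc2a were lower in KO too, with medians of -0.44 in PA and -0.37 in RO. Of these, 29.5% and 17.6% had a ratio at least as large in size. For Fmr1 the shares were 40.5% in PA and 7.47% in RO. In RO, 24.9% of all genes that reached a CPM of 10 were at least 2-fold different.

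Of 13 listed names for the methyltransferase complex and other writers, aliases included, 7 had a symbol. Mettl3 and Mettl14 were listed but had none. The median log2 ratio of KO to WT of the 7 was 0.23 in PA and 0.34 in RO. Cbll1, a subunit of the complex, was at least 2-fold higher in KO in PA (1.05). In RO the subunits Wtap (1.31) and Zc3h13 (1.35) and the separate methyltransferase Mettl16 (1.03) were so. That is 1 and 3 of 7 writers. Of all genes that reached a CPM of 10, 26.5% in PA and 24.9% in RO were 2-fold different in either direction. Genes of like count with a ratio at least as large in size made up 16.3% for Cbll1 in PA. In RO they made up 14.1% for Wtap, 7.45% for Zc3h13 and 19.0% for Mettl16. For RO over PA in WT, the subunit Rbm15b was at least 2-fold higher (1.22) and Mettl16 lower (-1.08), and in KO no writer was 2-fold different. The shares of all genes that reached a CPM of 10 were 20.6% in WT and 11.6% in KO for RO over PA. Virma and Rbm15, further subunits, stayed under 2-fold in all comparisons. Fto, the other demethylase known for this mark, was at 142.8 (PA) and 254.1 (RO) CPM in WT and 356.8 (PA) and 319.9 (RO) in KO, with a ratio of KO to WT of 1.32 in PA and 0.33 in RO. For Fto in PA, 7.62% of genes of like count had a ratio at least as large in size. WT PA was the low library for Fto, as it was for Ythdc1, Cbll1, Rbm15b and the spermatid marker sum.

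The genes whose proteins work with YTHDF2 and YTHDC1 were counted likewise. Of 12 listed names of CCR4-NOT deadenylase subunits, aliases included, 3 had a symbol (Cnot1, Cnot2, Cnot6l). None of the 3 was 2-fold different in any comparison, and their median ratio of KO to WT was -0.23 in PA and -0.04 in RO. Of 9 listed names of YTHDC1 partners in splicing, export and 3′ end processing, aliases included, 5 had one (Srsf10, Nxf1, Cpsf7, Safb, Safb2). All 5 were lower in KO in both fractions, with medians of -0.67 in PA and -0.48 in RO, and Cpsf7 was at least 2-fold lower in PA (-1.32). Genes of like count were lower in KO too, with medians from -0.44 to -0.14 in PA and from -0.37 to -0.13 in RO. The ratio of Safb2 in RO (-0.24) lay above that of its like genes (median -0.37), and the share of like genes with a lower ratio was 4.98% for Cpsf7 in PA and from 19.0% to 58.9% in the other cases. Of the Hnrnpa2b1 paralogs, 2 of 6 had a symbol: Hnrnpdl was at least 2-fold lower in RO than in PA in WT (-1.08), and Hnrnpa0 was under 2-fold throughout, at 0.73 for the same ratio. Hnrnpdl and Hnrnpa2b1 were both highest in WT PA, at 178.8 and 1209 CPM, whereas Hnrnpa0 was lowest there, at 38.4 CPM. Of all genes that reached a CPM of 10, 20.6% were at least 2-fold different for RO over PA in WT.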

How the data were processed

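The members and gene lists were chosen with earlier results of these data known. Per the submitters' processing notes, cutadapt 2.5, HISAT2 2.1.0, HOMER 4.10.4 and build mm10 were used; the counter, annotation and peak caller are not given in the sources used here. The authors deposited raw counts per Ensembl gene for the 4 input libraries, and 4 peak lists with a p-value, its log10, a log10 FDR and a fold ratio of immunoprecipitated over input for each peak. Lists were assigned by their names alone. Symbols come from the lists.

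Counts were scaled with TMM (edgeR 4.0.16, R 4.3.3; factors 0.892 and 0.953 in PA and RO of WT, 1.09 and 1.08 in KO), and log2 CPM took a prior count of 2. Every member was named with all its values; from the pathway lists, genes were named where their list had 10 or fewer members with a symbol or they were 2-fold different, and marker lists are given mainly as sums. The 2 nearest genes by pattern were named for each member, except 1 that is not reported here. Peak starts, counted from 0 in the lists, were printed from 1. In the RefSeq table (GRCm38.p6, the same assembly as mm10), 98.4% of 33189 peaks overlapped the gene of their symbol; 4 of 5 members had a promoter entry. Alternatives were DESeq2 1.42.0 size factors, library totals, other priors, filters and thresholds. Scripts ran in Python 3.11.15. The scaling and the log2 ratios of KO to WT were tested on simulated counts with counting error only. The simulation did not cover the peak overlaps, the genes of like count or the distances.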

Additional observations from a re-analysis of the deposited data

Results flagged for a closer look

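Ythdf3 had opposite signs in the genotype comparisons, with a log2 ratio of KO to WT of 0.106 in PA and -0.167 in RO. Each fraction has 1 library per genotype, so the difference was not tested; the counting interval in PA includes 0 (-0.001 to 0.21).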

How the results depend on the processing

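Of the 20 log2 ratios, none changed sign and none moved by more than 0.011 under DESeq2 size factors, a prior count of 0.5 or TMM factors from genes with a CPM of at least 1. Library totals alone shifted ratios by up to 0.289, and the median of all genes to 0.284 (PA) and 0.152 (RO) for KO over WT. That turned 3 signs, given beside those values, and made 1 reader gene (Ythdf2, 1.02) at least 2-fold different for KO over WT in PA, against 0 with TMM. Ythdf1 lay just under 2-fold in the same comparison, at 1.0 after rounding. A threshold of 1.5-fold gave 2 reader genes for KO over WT in PA, 1 for RO over PA in WT, 2 for RO over PA in KO and 0 for KO over WT in RO, against 0 in each at 2-fold. The share of all genes at least 2-fold different with a CPM of at least 1, 43.3%, 41.9%, 39.4% and 32.9%, was 26.5%, 24.9%, 20.6% and 11.6% at a CPM of at least 10. Of the 45 reader peaks, 35 had a fold of at least 5. Counterparts at a reciprocal overlap of 50% are given with the peaks. No replicate could be left out and no paired analysis was possible because each group has 1 library.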
